A study of Mus musculus with 24 samples.

Results

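The genes described here are those of cholesterol synthesis, sterol uptake and transport, and control of that pathway by the transcription factor SREBP2, in mouse liver. They were chosen by name, with no measured value in the rule: 30 gene symbols were looked up among the probes of the array. The choice was made with earlier results of these data known. A probe carried the name of 29 of them, and 28 were tested, among 22088 tested genes in all. The probe used for each of the 28 was well above background on all 24 arrays, so the filter on dim probes did not select members by group. Acat2, the cytosolic thiolase at the head of the pathway, had no probe under its own name. A probe named for Acat3 is also annotated to Acat2 and was not counted for it. Npc1l1, the sterol uptake protein of the intestine, was well above background on 2 of 6 WT control, 5 of 6 WT FB1, 2 of 6 KO control and 3 of 6 KO FB1 arrays and was not tested.

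Liver RNA of 24 female mice was hybridised to 1-colour arrays, 1 array per mouse and 6 mice per group. All mice were 8 weeks old and of a sv129/C57 background. WT mice carry both LXR genes, and KO mice lack LXRα and LXRβ, the oxysterol receptors encoded by Nr1h3 and Nr1h2; the sources used here do not say how the alleles were made. Mice received either water, here called control, or fumonisin B1 (FB1), a mycotoxin that inhibits ceramide synthases, at 10 mg/kg per day for 1 month. Groups are named by genotype and treatment, as in KO FB1. The design asks how FB1 acts in liver with and without LXR. FB1 was compared with control within each genotype, KO with WT within each treatment, and the FB1 effect in KO with that in WT, called the difference of the effects.

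Cholesterol is built from acetyl-CoA through mevalonate, isoprenoid diphosphates, squalene and lanosterol, and the liver is a major site of its synthesis. When sterols in the endoplasmic reticulum are low, Scap escorts SREBP2 to the Golgi, where it is cleaved and released to activate the genes of the pathway. When sterols are high, the Insig proteins hold Scap and SREBP2 back. LXR acts on the other side of the balance, as oxysterols activate it to raise sterol efflux and to induce Srebf1, the gene of the related factor SREBP1.

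Of 59305 non-control spots, 58.7% to 64.5% per array were well above background, and arrays of a group correlated at 0.984 to 0.994 over genes. Each of 3 slides carried 8 arrays, 2 from every group. Nr1h3 lay between 4.71 and 5.06 in WT and between -5.13 and -2.56 in KO livers, and Nr1h2 between 4.02 and 4.34 in WT and between 0.31 and 0.80 in KO livers. All levels here are log2 signal relative to the array's 75th percentile, so a level of 0 is the 75th percentile and levels of different genes are not set against each other. All differences are log2 differences between group means of 6 arrays each, given with ± their standard error (SE). A gene was called at an adjusted p under 0.05 by limma, adjusted over all 22088 genes. Precision is limited by how many arrays there are. In liver tissue, fewer cells of a type and less RNA per cell cannot be told apart.

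Promoter sequence was at hand for 24 of the 30 members in a RefSeq table of build GRCm38.p6. It is shown for 5 of them as a description, and the part of promoter sequence in the measured values was not tested. Hmgcs1 was chosen as the member with the letters of the sterol regulatory element. Tm7sf2 and Insig1 were chosen as a synthesis gene and a control gene that fell in KO livers under FB1. Sc5d was chosen as a synthesis gene that was lower in KO livers by its brightest probe, and Soat1 as the called rise. Each line gives the 250 bases before the start of the gene, 5′ to 3′ on the gene's strand. Capitals mark matches on either strand to the sterol regulatory element core TCACNCCAC, the NF-Y box CCAAT and the Sp1 box GGGCGG.
Hmgcs1: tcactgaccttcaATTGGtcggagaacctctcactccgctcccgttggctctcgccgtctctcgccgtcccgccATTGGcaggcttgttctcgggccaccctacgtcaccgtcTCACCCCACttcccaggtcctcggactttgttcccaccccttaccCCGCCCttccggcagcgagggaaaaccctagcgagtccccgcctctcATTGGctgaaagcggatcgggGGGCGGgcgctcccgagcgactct
Tm7sf2: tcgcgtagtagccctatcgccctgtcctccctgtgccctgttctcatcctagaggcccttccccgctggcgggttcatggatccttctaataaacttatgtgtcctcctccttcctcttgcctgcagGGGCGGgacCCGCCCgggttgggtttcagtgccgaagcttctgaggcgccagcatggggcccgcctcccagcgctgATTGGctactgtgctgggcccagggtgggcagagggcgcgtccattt
Insig1: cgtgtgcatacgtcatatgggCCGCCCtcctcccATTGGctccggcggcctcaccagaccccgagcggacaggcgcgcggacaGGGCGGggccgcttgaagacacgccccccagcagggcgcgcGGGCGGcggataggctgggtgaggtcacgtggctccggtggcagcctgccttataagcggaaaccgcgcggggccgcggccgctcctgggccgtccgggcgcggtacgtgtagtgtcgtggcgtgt
Sc5d: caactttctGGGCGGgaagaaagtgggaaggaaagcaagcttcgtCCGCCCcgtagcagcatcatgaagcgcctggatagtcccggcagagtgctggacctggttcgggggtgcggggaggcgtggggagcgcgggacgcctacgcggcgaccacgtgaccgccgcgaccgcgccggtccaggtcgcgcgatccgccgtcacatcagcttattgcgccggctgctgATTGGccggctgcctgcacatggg
Soat1: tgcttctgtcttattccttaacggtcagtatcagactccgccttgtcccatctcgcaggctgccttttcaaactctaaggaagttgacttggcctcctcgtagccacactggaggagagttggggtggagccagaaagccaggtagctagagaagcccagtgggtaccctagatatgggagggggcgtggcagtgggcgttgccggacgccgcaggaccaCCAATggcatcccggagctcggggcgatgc
The stretches lie at chr13:119690101-119690350 on the plus strand for Hmgcs1, chr19:6067851-6068100 on the minus strand for Tm7sf2, chr5:28071162-28071411 on the plus strand for Insig1, chr9:42264301-42264550 on the minus strand for Sc5d and chr1:156474329-156474578 on the minus strand for Soat1.

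Positions are counted in bases before the start of the gene, for matches on either strand. Hmgcs1 held the sterol regulatory element core at 137 bases, CCAAT boxes at 45, 176 and 237 bases and Sp1 boxes at 24 and 92 bases. Tm7sf2 held a CCAAT box at 47 bases and Sp1 boxes at 114 and 123 bases. Insig1 held a CCAAT box at 216 bases and Sp1 boxes at 126, 167 and 229 bases, Sc5d a CCAAT box at 24 bases and Sp1 boxes at 205 and 241 bases, and Soat1 a CCAAT box at 30 bases with no match to the other motifs. Over the 24 members, 1 had the sterol regulatory element core, 22 had a CCAAT box and 20 had an Sp1 box, and 18 had both of the latter. Counted by promoter, 3.33% of the members' 30 promoters held the element core against 1.05% of the 32851 promoters in the table. For CCAAT the shares were 73.3% and 33.8%, and for the Sp1 box 73.3% and 32.7%. In the members 0 matches of different motifs overlapped. A match describes these letters in this window and says nothing of binding.

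In KO livers FB1 lowered most of the cholesterol pathway. Of the 28 tested members 20 fell (71.4%) and 1 rose (3.57%), where over all genes 24.6% were called lower and 16.5% higher. The median difference of the members was -0.69, against -0.08 over all genes tested. The falls ran through every step of synthesis, from Mvk, Pmvk and Mvd to Dhcr7, and took in the control genes Srebf2, Scap and Insig1. Soat1, which esterifies cholesterol for storage, was the rise. The 12 arrays did not overlap between KO control and KO FB1 for 6 of the 28 members, a share near the 18.4% of all genes. With slide as a block the counts were again 20 and 1, and the members' median was -1.16, -0.20 and -0.77 within slides 1, 2 and 3.

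In WT livers no member was called by limma after FB1. Values were below 0 for 23 of 28 members, with a median of -0.37 against -0.03 over all genes. Over all genes 2.06% were called higher and 0.824% lower. At an unadjusted p under 0.05, 11 members were lower and 0 higher, where 9.93% of all genes were lower and 8.14% higher by the same rule. For 2 of the 28 members the WT FB1 and WT control arrays did not overlap, against 2.33% of all genes. The count of members called lower after FB1 in WT was 4 when the fit held the WT groups alone, 1 with normexp background correction or an intensity trend, 2 without WT FB1 replicate 4, and 1 without KO control replicate 3, 5 or 6 or KO FB1 replicate 2. Within slides 1, 2 and 3 the median was -0.38, -0.26 and -0.26.

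**Figure D1:**
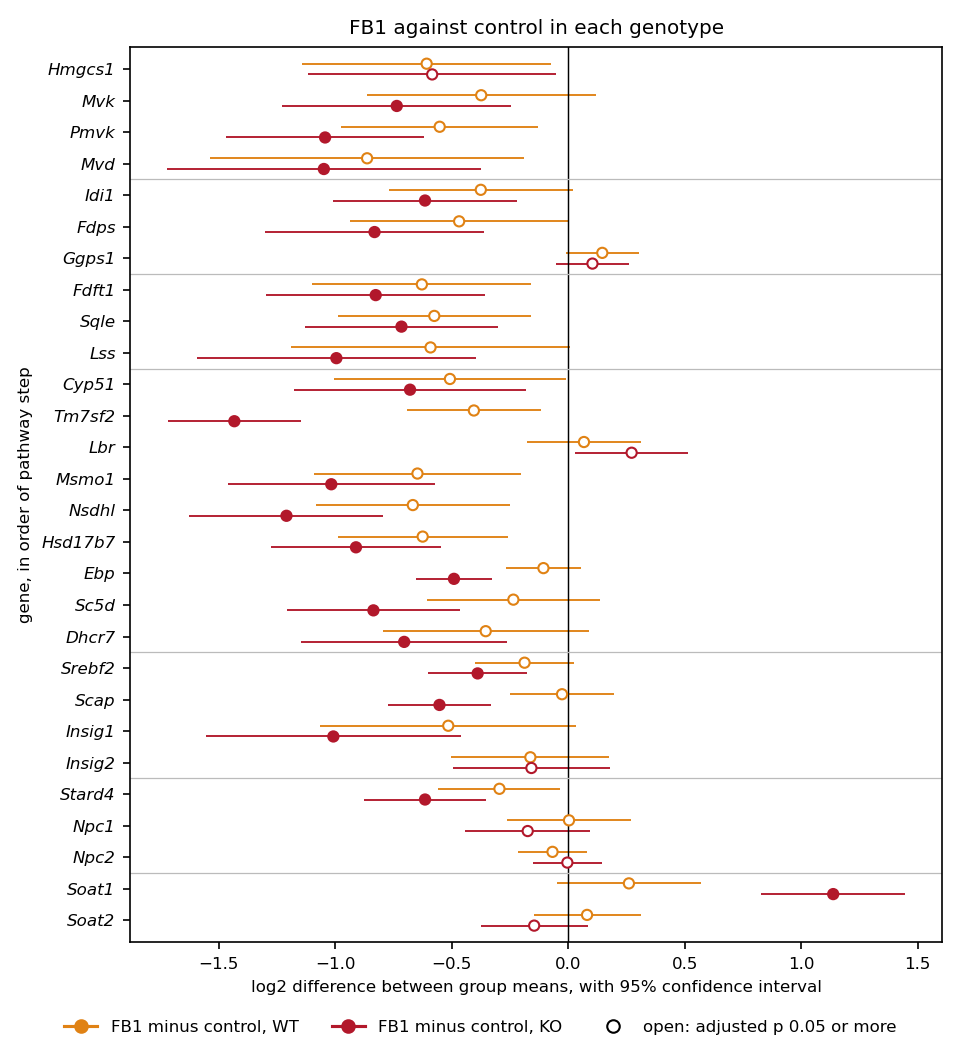
Log2 difference between FB1 and control means (x axis, with its 95% confidence interval) for each of the 28 tested members (y axis, in order of pathway step), in WT (orange) and KO (red); filled points were called at an adjusted p under 0.05. Filled red points lie left of 0 for 20 members and right of 0 for Soat1, and every orange point is open.

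Without FB1, KO livers differed from WT livers in 7 of the 28 members. Mvk, Idi1, Cyp51 and Hsd17b7, all enzymes of synthesis, were called higher (14.3%, against 7.21% of all genes), and Sc5d, Insig2 and Soat1 lower (10.7%, against 8.02% of all genes). The median over the members was 0.19, against 0.01 over all genes. For Insig2 the groups did not overlap, 1 of the 28 members, a share below the 7.93% of all genes. The 4 higher calls changed with the setting. They numbered 1 with all probes, 2 with the control groups fitted alone, 7 with the mean of a gene's probes, 0 without KO control replicate 1 or 5, 1 without KO control replicate 4 or WT control replicate 4, 2 without WT control replicate 2 or 5, and 7 without KO control replicate 6. The lower calls numbered 1 without WT control replicate 3. With slide as a block 5 were higher and 3 lower, and the median was 0.24, 0.08 and 0.19 within slides 1, 2 and 3.

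Under FB1, more members were called lower than higher in KO livers. Pmvk, Tm7sf2, Ebp and Sc5d among the enzymes, Scap, Insig1 and Insig2 among the control genes, and Soat2 were called lower in KO than in WT livers, 8 members or 28.6%, where 18.3% of all genes were called lower. Lbr was called higher (3.57%, against 14.5% of all genes). The median of the members was -0.07, against -0.03 over all genes. The 19 tested synthesis enzymes had a median of 0.14 here, with 10 above 0, beside 0.34 with 14 above 0 without FB1. For Pmvk, Tm7sf2, Ebp and Sc5d the groups did not overlap, 4 of the 28 members, a share near the 15.2% of all genes. With slide as a block 8 were lower and 3 higher, and the median was -0.09, 0.13 and -0.19 within slides 1, 2 and 3. The count of higher members was 3 without WT FB1 replicate 1 or KO control replicate 5 or 6, and 4 without KO FB1 replicate 2.

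The FB1 effect itself differed between the genotypes for 4 members, by the test of that difference. Tm7sf2, Ebp and Scap fell more in KO than in WT livers (10.7%, against 4.84% of all genes), and Soat1 rose more (3.57%, against 4.46% of all genes). The other 24 members did not pass this test by the probe used for them, among them 17 of the 20 that fell in KO livers. A second probe of Nsdhl did pass it (-1.13, adjusted p = 0.0262 over all tested probes). The median of the difference over the members was -0.26, against -0.04 over all genes, and it was -0.63, 0.05 and -0.27 within slides 1, 2 and 3. The count of members with a lower value was 1 without KO control replicate 2 or KO FB1 replicate 2 or 6. The comparisons share arrays: KO control enters both FB1 in KO and KO against WT without FB1, so a high or low KO control group moves both.

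Among the enzymes of the mevalonate steps, 3 of 4 tested fell after FB1 in KO livers. Pmvk, phosphomevalonate kinase, lay at 5.04, 5.71 and 6.32 (lowest, median and highest) in KO control and at 4.02, 4.69 and 5.20 in KO FB1. It lay at 5.81, 5.92 and 6.4 in WT control and at 5.24, 5.5 and 5.69 in WT FB1. The WT groups and the FB1 groups of both genotypes were each apart, while the KO groups overlapped. The fall in KO was 2.06-fold (-1.04 ± 0.20, adjusted p = 0.000331), and the value in WT was -0.55 ± 0.20 (adjusted p = 0.151). Under FB1, KO livers were 1.81-fold lower in Pmvk than WT livers (-0.85 ± 0.20, adjusted p = 0.00252).

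Mvk, mevalonate kinase, fell by 0.74 ± 0.24 in KO livers (adjusted p = 0.0162), and Mvd, which decarboxylates mevalonate diphosphate, fell by 1.05 ± 0.33 (adjusted p = 0.0127). All 6 KO FB1 arrays were below all 6 KO control arrays for Mvd, 0.87 to 2.06 against 2.16 to 3.61. The call of Mvk after FB1 was lost with the authors' values (-0.51, adjusted p = 0.0717). By its brightest probe Hmgcs1, which makes HMG-CoA from acetyl-CoA, had almost the same FB1 value in both genotypes. It was -0.61 ± 0.26 in WT and -0.58 ± 0.26 in KO, and neither passed the test (adjusted p = 0.213 and 0.0734). The difference of these FB1 effects was 0.02, with a 95% confidence interval from -0.73 to 0.78, which is wide next to the value. In KO against WT this probe gave 0.62 without FB1 and 0.65 with it (adjusted p = 0.113 and 0.0571). The value with FB1 became a call under 11 other settings. A second, dimmer probe gave 0.21 ± 0.55 in WT and -0.49 ± 0.55 in KO after FB1. In KO against WT without FB1 the dimmer probe gave 1.88 ± 0.55 (adjusted p = 0.0244 over all tested probes).

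In the isoprenoid steps Idi1 and Fdps fell in KO livers and Ggps1 did not pass the test in any comparison. Idi1 turns isopentenyl diphosphate into its isomer. It lay at 5.43, 5.83 and 6.03 in WT control, 5.28, 5.42 and 5.56 in WT FB1, 5.91, 6.49 and 7.08 in KO control and 5.30, 5.78 and 6.37 in KO FB1. KO control was the high group, above every WT FB1 array, and the other pairs of groups overlapped in part. Without FB1 it was 1.58-fold higher in KO than in WT livers (0.66 ± 0.19, adjusted p = 0.0197), and FB1 in KO lowered it 1.53-fold (-0.61 ± 0.19, adjusted p = 0.0126). The first call was lost without KO control replicate 1 or 5, and the second with quantile normalization, with the authors' values and with the KO groups fitted alone. Its FB1 value within slide 2 was 0.0047, with no fall there.

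Fdps, which joins isoprenoid units to farnesyl diphosphate, lay at 6.36, 6.94 and 7.52 in KO control and at 5.22, 6.20 and 6.70 in KO FB1. In WT control it lay at 6.74, 6.91 and 7.51 and in WT FB1 at 6.24, 6.60 and 6.92. The control groups covered much the same range, and KO FB1 reached lowest. The fall was 1.78-fold in KO (-0.83 ± 0.23, adjusted p = 0.00537), and the value in WT was -0.47 ± 0.23 (adjusted p = 0.278). Ggps1 makes geranylgeranyl diphosphate, which feeds protein prenylation rather than sterols. Its values were 0.15 ± 0.08 in WT and 0.10 ± 0.08 in KO.

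The enzymes from farnesyl diphosphate to lanosterol, Fdft1, Sqle and Lss, all fell in KO livers. Fdft1, squalene synthase, lay at 5.33, 6.10 and 6.57 in KO control and 4.30, 5.23 and 5.67 in KO FB1, and at 5.27, 5.68 and 5.94 in WT control and 4.65, 5.01 and 5.44 in WT FB1. In both genotypes the FB1 arrays sat lower and overlapped the controls. Its fall was 1.77-fold in KO (-0.83 ± 0.23, adjusted p = 0.00564), beside -0.63 ± 0.23 in WT (adjusted p = 0.139). Sqle, squalene epoxidase, fell by 0.72 ± 0.20 and Lss, lanosterol synthase, by 1.0 ± 0.29 in KO, beside -0.58 ± 0.20 and -0.59 ± 0.29 in WT. None of these enzymes differed between the genotypes by a called value, with or without FB1.

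From lanosterol to cholesterol 8 of 9 enzymes fell in KO livers under FB1. Tm7sf2, a sterol reductase that acts after Cyp51, had the smallest p of all members. It lay at 6.27, 6.32 and 6.57 in WT control, 5.69, 5.78 and 6.39 in WT FB1, 6.32, 6.49 and 6.77 in KO control and 4.60, 5.08 and 5.44 in KO FB1. KO FB1 stood below every array of the other groups, and 2 of the 6 WT FB1 arrays, both on slide 3, lay within the WT control range. FB1 lowered it 2.70-fold in KO (-1.43 ± 0.14, adjusted p = 1.2e-07), while the value in WT was -0.41 ± 0.14 (adjusted p = 0.116). The WT value became a call without WT FB1 replicate 4 (adjusted p = 0.0412). The difference of the FB1 effects was -1.03 ± 0.20 (adjusted p = 0.00267), and within slides 1, 2 and 3 it was -1.0, -0.51 and -1.57. Its probe lies at chr19:6062882-6062941 of build mm9, and a second probe of the gene gave -1.54 in KO and -1.10 for the difference, both called in a fit over all tested probes.

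Lbr encodes a protein of the nuclear envelope with the same reductase activity as Tm7sf2. It was the enzyme of this stretch with no fall, at 0.27 ± 0.12 after FB1 in KO (adjusted p = 0.0674), and it was called higher in KO than in WT livers under FB1 (0.42 ± 0.12, adjusted p = 0.0077). The value after FB1 in KO became a call with quantile normalization, with the authors' values, and without KO control replicate 4 or 5 or KO FB1 replicate 5. Cyp51, which demethylates lanosterol, was called higher in KO than in WT livers without FB1 (0.78 ± 0.24, adjusted p = 0.0296) and fell under FB1 in KO (-0.68 ± 0.24, adjusted p = 0.027). Both calls of Cyp51 were lost with the authors' values, with the compared groups fitted alone, and without KO control replicate 1, 4 or 5. The first was also lost with all probes and without WT control replicate 2, 4 or 5, and the second with quantile normalization and without KO FB1 replicate 2 or 5.

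Msmo1, Nsdhl and Hsd17b7 act together to take methyl groups off the sterol ring, and they held the smallest p-values after FB1 in WT. Msmo1 lay at 6.05, 6.37 and 6.61 in WT control, 5.42, 5.64 and 6.20 in WT FB1, 6.41, 7.03 and 7.58 in KO control and 5.22, 5.91 and 6.53 in KO FB1. Nsdhl lay at 3.0, 3.11 and 3.43 in WT control, 2.19, 2.42 and 3.07 in WT FB1, 2.78, 3.56 and 3.82 in KO control and 1.57, 2.23 and 2.70 in KO FB1. Hsd17b7 lay at 4.27, 4.46 and 4.82 in WT control, 3.47, 3.90 and 4.22 in WT FB1, 4.57, 5.11 and 5.64 in KO control and 3.64, 4.24 and 4.45 in KO FB1. FB1 arrays were apart from the controls of their genotype for Hsd17b7 in both genotypes and for Nsdhl in KO, and the others overlapped. In WT the values were -0.65 ± 0.21, -0.67 ± 0.20 and -0.62 ± 0.18 in that order, with adjusted p of 0.106, 0.0758 and 0.0559. In KO they fell by 1.02 ± 0.21, 1.21 ± 0.20 and 0.91 ± 0.18, with adjusted p of 0.000652, 6.07e-05 and 0.000287.

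The probes of these genes differed between the genotypes in different ways. Hsd17b7 was called higher in KO than in WT livers without FB1 by its brightest probe, at chr1:171882591-171882650 of build mm9 (0.58 ± 0.18, adjusted p = 0.0274). Of its other probes, the brighter gave 0.45 and the dimmer, at chr1:171885632-171885691, gave -0.51, neither of them called (adjusted p = 0.117 for each over all tested probes). Nsdhl did not differ by its brightest probe, at chrX:70203236-70203295 (0.24 ± 0.20, adjusted p = 0.493), while its second probe, at chrX:70186412-70186471, gave 1.74 (adjusted p = 3.04e-06). Under FB1 the second Nsdhl probe was again higher in KO (0.61, adjusted p = 0.0386), where the brightest was at -0.30. For the difference of the FB1 effects the second Nsdhl probe gave -1.13 (adjusted p = 0.0262) and the brightest -0.54 (adjusted p = 0.246). With the mean of the probes that difference of Nsdhl became a call (adjusted p = 0.0435). For Msmo1 the brightest probe narrowly missed the threshold without FB1 (0.62 ± 0.21, adjusted p = 0.0549), and both other probes passed it, at 0.74 and 1.48. Which transcripts each probe detects was not tested.

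Ebp, the sterol isomerase, and Sc5d and Dhcr7, which act at the end of the pathway, also fell in KO. Ebp lay at 7.41, 7.58 and 7.62 in WT control, 7.33, 7.42 and 7.59 in WT FB1, 7.23, 7.48 and 7.57 in KO control and 6.78, 6.91 and 7.28 in KO FB1. KO FB1 was low and met KO control at 1 end. The fall was 1.41-fold in KO (-0.49 ± 0.08, adjusted p = 3.98e-05), beside -0.11 ± 0.08 in WT (adjusted p = 0.495). The difference of the effects was -0.38 ± 0.11 (adjusted p = 0.0307), and it lost its call with the 1.5-fold minimum and under 10 of the 34 other settings run, which were quantile normalization, the authors' values, all probes, a replicate block, and without WT control replicate 1, WT FB1 replicate 6, KO control replicate 2 or 5 or KO FB1 replicate 2 or 6. A second, dimmer probe gave -0.62 for the difference (adjusted p = 0.0113).

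By its brightest probe Sc5d, a sterol desaturase, was low in KO livers with either treatment. It lay at 6.33, 6.48 and 6.88 in WT control, 6.09, 6.31 and 6.57 in WT FB1, 5.38, 5.94 and 6.5 in KO control and 4.71, 5.02 and 5.54 in KO FB1. All KO FB1 arrays were below all WT FB1 arrays, while the control groups overlapped. Without FB1 it was 1.52-fold lower in KO (-0.60 ± 0.18, adjusted p = 0.0245) and with FB1 2.30-fold lower (-1.20 ± 0.18, adjusted p = 1.72e-05). FB1 lowered it 1.79-fold in KO (-0.84 ± 0.18, adjusted p = 0.000774). The call without FB1 was lost with quantile normalization, the mean of the probes, the control groups fitted alone, and without WT control replicate 3 or KO control replicate 2 or 3, and the second probe of the gene gave -0.27 there (adjusted p = 0.519). In KO against WT with FB1 the second Sc5d probe gave -0.60 and was not called (adjusted p = 0.0508 over all tested probes). After FB1 in KO the second Sc5d probe gave -0.87 (adjusted p = 0.00437). Dhcr7, the last reductase, fell by 0.70 ± 0.21 in KO under FB1 (adjusted p = 0.0112), beside -0.35 ± 0.21 in WT.

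**Figure D2:**
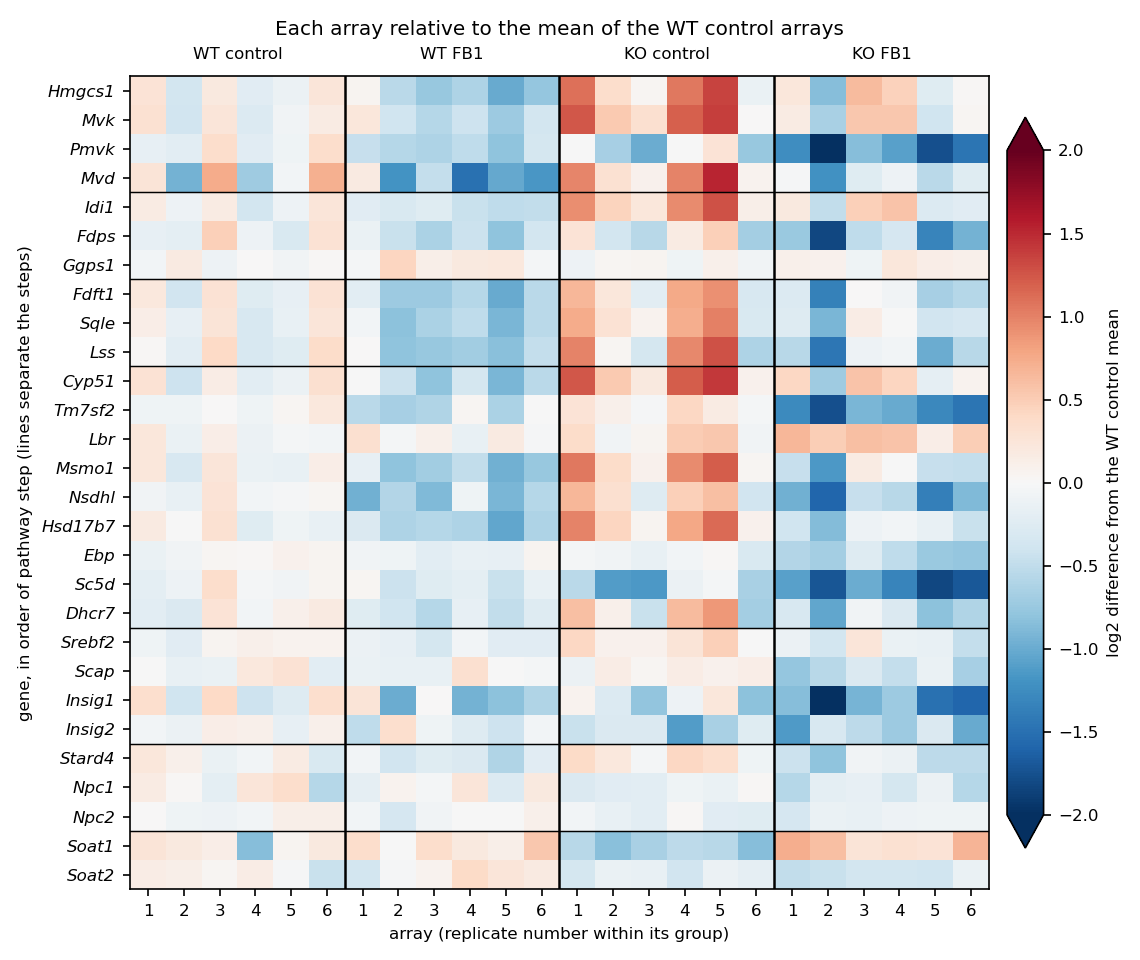
Colour gives the log2 difference of each array (x axis, 6 per group, by replicate number) from the WT control mean for the 28 tested members (y axis, in order of pathway step); colours stop at 2 and -2. Columns of the synthesis genes change colour together, with KO control replicates 1, 4 and 5 red and KO FB1 replicate 2 blue for most of them.

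Within each group the synthesis genes were high or low together on the same arrays. Against the WT control mean, the median of the 19 tested synthesis genes lay between -0.21 and 0.26 in WT control and between -0.80 and -0.07 in WT FB1. In KO control it was 0.67, 0.22, 0.04, 0.72, 0.91 and -0.14 for replicates 1 to 6, and in KO FB1 it was -0.33, -1.04, -0.08, -0.06, -0.54 and -0.48. The ranges were 1.05 and 0.98 in the KO groups and 0.47 and 0.74 in WT control and WT FB1. KO control replicate 5 was the highest of its group for 17 of the 19 genes and replicate 6 the lowest for 15. In KO FB1, replicate 2 was the lowest for 15 genes and replicate 3 the highest for 12. In WT FB1, replicate 1 was the highest for 13 and replicate 5 the lowest for 12, and in WT control replicate 3 was the highest for 10 and replicate 2 the lowest for 10.

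KO control replicate 5 was above its group's mean for 19 of 19 synthesis genes and replicate 6 for 0 of 19. The 19 genes are not independent of each other on an array, so their agreement is a description of 1 animal at a time. The high and low KO control arrays did not follow the slide: slide 1 held replicates 3 and 5, slide 2 replicates 1 and 6, and slide 3 replicates 2 and 4. The KO FB1 arrays at -0.08 and -0.06 were both on slide 2, and those at -1.04 and -0.54 both on slide 1. No label in the sources used here gives the feeding state or hour of sampling, and their part in the spread was not tested.

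**Figure D3:**
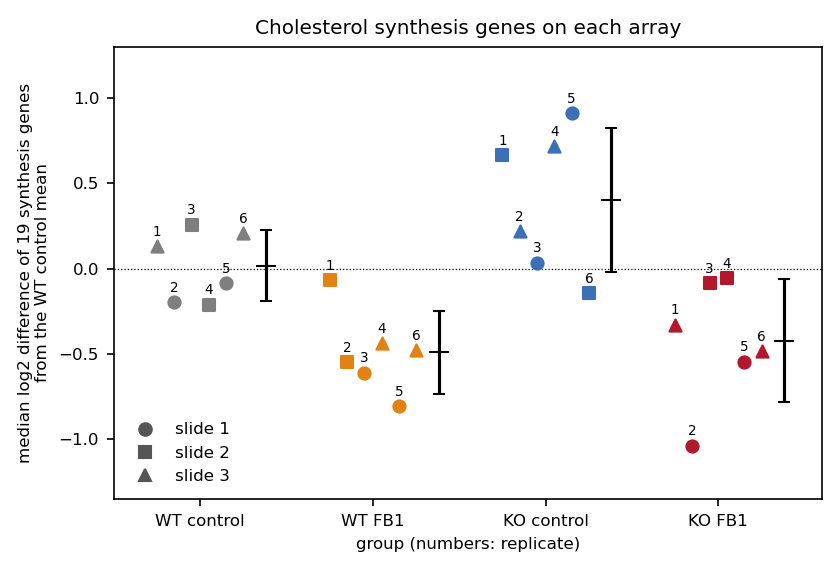
Median log2 difference of the 19 tested synthesis genes from the WT control mean (y axis) on each array, by group (x axis), with the replicate number above each point, the slide as its shape, and the mean and SD of the 6 arrays as bars. The KO control arrays spread from -0.14 to 0.91 and the KO FB1 arrays from -1.04 to -0.06.

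Of the genes that control SREBP2, Srebf2, Scap and Insig1 fell after FB1 in KO livers and none of the 4 was called in WT livers. Srebf2, the gene of SREBP2 itself, lay at 1.83, 2.11 and 2.16 in WT control, 1.71, 1.86 and 2.0 in WT FB1, 2.05, 2.23 and 2.53 in KO control and 1.58, 1.91 and 2.30 in KO FB1. KO control was the highest, above every WT FB1 array, and the other pairs of groups overlapped. It fell by 0.39 ± 0.10 in KO (adjusted p = 0.00439), beside -0.19 ± 0.10 in WT (adjusted p = 0.344). Between the genotypes without FB1 its brightest probe, at chr15:82035495-82035554 of build mm9, gave 0.22 ± 0.10 (adjusted p = 0.169). Its other probe, at chr15:82034765-82034824, gave 0.70 (adjusted p = 0.000794 over all tested probes) and 0.49 under FB1 (adjusted p = 0.00919), so the genotype call of Srebf2 depends on the probe.

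Scap, the escort of SREBP2, was low in KO FB1 against the other groups. It lay at 5.01, 5.14 and 5.5 in WT control, 5.06, 5.13 and 5.54 in WT FB1, 5.10, 5.32 and 5.36 in KO control and 4.45, 4.70 and 5.08 in KO FB1. KO FB1 lay below all KO control arrays. The fall was 1.47-fold in KO (-0.55 ± 0.11, adjusted p = 0.000306) and the value in WT was -0.03 ± 0.11 (adjusted p = 0.927). The difference of the effects was -0.53 ± 0.15 (adjusted p = 0.0309) and was -0.27, -0.22 and -1.10 within slides 1, 2 and 3. It lost its call with the 1.5-fold minimum and under 10 of the 34 other settings run: the authors' values, all probes, and without WT control replicate 2, 3 or 6, WT FB1 replicate 4, KO control replicate 2 or KO FB1 replicate 1, 2 or 6.

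Insig1 and Insig2 retain Scap in the endoplasmic reticulum, and Insig1 is itself a target of SREBP2. Insig1 lay at 1.82, 2.26 and 2.62 in WT control, 1.24, 1.51 and 2.49 in WT FB1, 1.40, 2.04 and 2.45 in KO control and 0.05, 1.01 and 1.5 in KO FB1. KO FB1 reached lowest and overlapped KO control. It fell 2.01-fold in KO (-1.01 ± 0.27, adjusted p = 0.00412), beside -0.52 ± 0.27 in WT (adjusted p = 0.309). Under FB1 it was 1.71-fold lower in KO than in WT livers (-0.78 ± 0.27, adjusted p = 0.0273), a call lost with the FB1 groups fitted alone and without WT FB1 replicate 1 or 3 or KO FB1 replicate 2 or 6.

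By its brightest probe Insig2 was lower in KO livers with either treatment. Its value after FB1 did not pass the test in either genotype. It lay at 5.66, 5.85 and 5.96 in WT control, 5.32, 5.66 and 6.17 in WT FB1, 4.72, 5.46 and 5.58 in KO control and 4.70, 5.21 and 5.54 in KO FB1. All KO control arrays were below all WT control arrays, and the FB1 groups overlapped. The difference between genotypes was -0.50 ± 0.16 without FB1 (adjusted p = 0.0382) and -0.50 ± 0.16 with it (adjusted p = 0.0216). Neither call held under every setting, and both were lost with the 1.5-fold minimum: the first was lost with quantile normalization, all probes, the mean of the probes, and without WT control replicate 1, 3, 4 or 6 or KO control replicate 1, 4 or 5, and the second with quantile normalization, the authors' values, the mean of the probes, and without WT FB1 replicate 2 or KO FB1 replicate 1 or 6. After FB1 the value was -0.16 ± 0.16 in WT and in KO. In KO against WT another Insig2 probe gave -0.55 without FB1 and -0.46 with it (adjusted p = 0.0385 and 0.0488 over all tested probes). The dimmest Insig2 probe gave -0.27 and -0.28 there, neither of them called (adjusted p = 0.369 and 0.244).

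**Figure D4:**
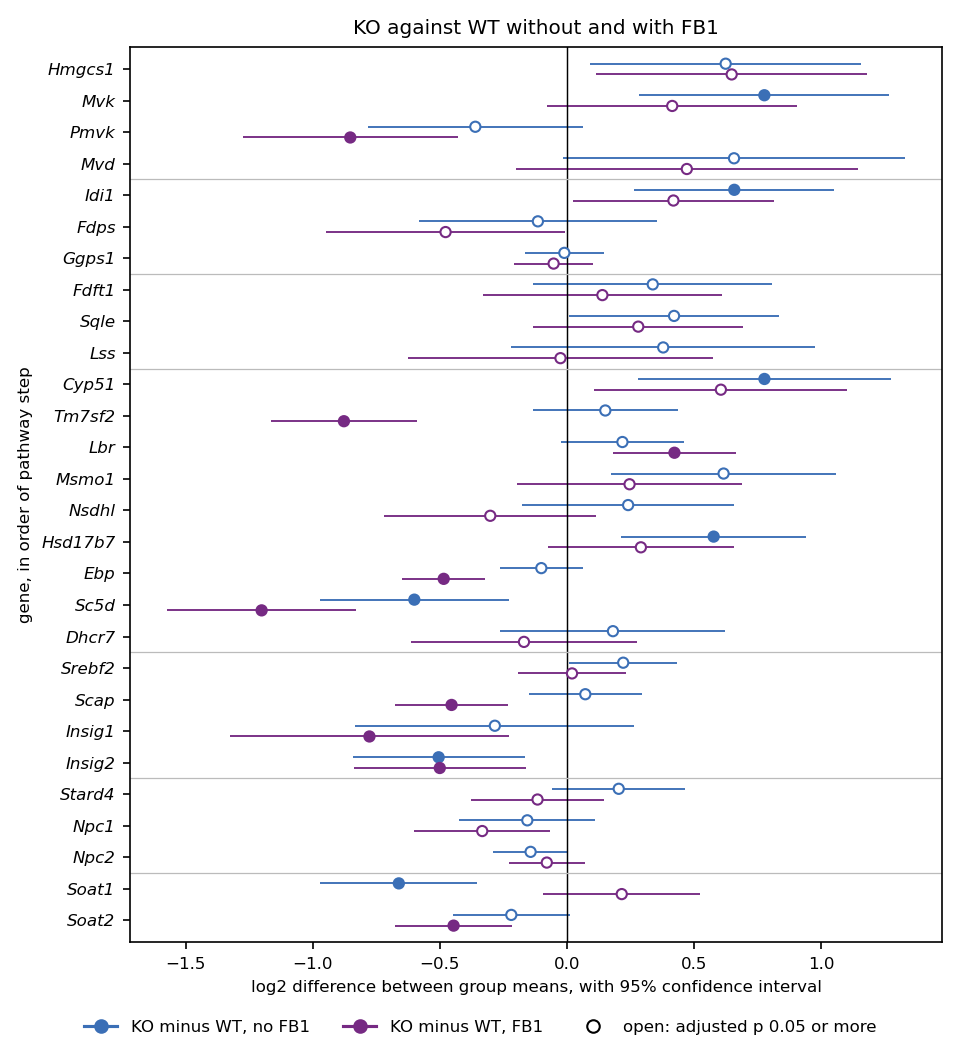
Log2 difference between KO and WT means (x axis, with its 95% confidence interval) for each of the 28 tested members (y axis, in order of pathway step), without FB1 (blue) and with FB1 (purple); filled points were called at an adjusted p under 0.05. Filled blue points lie right of 0 for Mvk, Idi1, Cyp51 and Hsd17b7 and left of it for Sc5d, Insig2 and Soat1, and 8 of the 9 filled purple points lie left of 0.

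Among the genes of sterol transport, Stard4 fell and the lysosomal exporters did not pass the test. Stard4, a cytosolic sterol carrier and SREBP2 target, lay at 2.71, 3.03 and 3.24 in WT control, 2.41, 2.75 and 2.96 in WT FB1, 2.93, 3.28 and 3.43 in KO control and 2.20, 2.53 and 2.93 in KO FB1. The KO groups met at 2.93, and the WT groups overlapped. The fall was 1.53-fold in KO (-0.61 ± 0.13, adjusted p = 0.000523), beside -0.30 ± 0.13 in WT (adjusted p = 0.219). Npc1 and Npc2, which move cholesterol out of lysosomes, had values of -0.17 ± 0.13 and 0.00 ± 0.07 after FB1 in KO. Under FB1, Npc1 was at -0.33 ± 0.13 in KO against WT (adjusted p = 0.0517), a value that passed the test under 9 other settings.

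Soat1 and Soat2 esterify cholesterol, Soat2 mainly in hepatocytes and Soat1 in many cells, macrophages among them. Soat1 lay at -1.64, -0.63 and -0.53 in WT control, -0.80, -0.52 and -0.25 in WT FB1, -1.65, -1.40 and -1.32 in KO control and -0.53, -0.34 and -0.07 in KO FB1. All KO FB1 arrays were above all KO control arrays, and WT control held 1 array as low as KO control. FB1 raised it 2.20-fold in KO (1.14 ± 0.15, adjusted p = 4.11e-06), and the value in WT was 0.26 ± 0.15 (adjusted p = 0.366), or 0.09 without WT control replicate 4 (adjusted p = 0.73). The difference of the effects was 0.88 ± 0.21 (adjusted p = 0.0119), at 0.93, 0.46 and 1.24 within slides 1, 2 and 3, and it was lost with the authors' values (adjusted p = 0.0751). The other tested probes gave 0.50, 0.92 and 0.80 for this difference (adjusted p = 0.356, 0.0554 and 0.0282 over all tested probes), so its call depends on the probe. All 4 tested Soat1 probes rose after FB1 in KO, from 0.91 to 1.33, and the brightest lies at chr1:158360916-158360975 of build mm9.

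Without FB1, Soat1 was 1.58-fold lower in KO than in WT livers (-0.66 ± 0.15, adjusted p = 0.00308), and it was the 1 genotype call without FB1 that held under the 35 other settings run and the 1.5-fold minimum. Of its 3 other probes, 1 missed the threshold (-0.59, adjusted p = 0.0847 over all tested probes). The low WT control array was replicate 4, at -1.64 where the next was at -0.75. Without it the difference was -0.83 (adjusted p = 4.16e-06).

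Macrophage markers also changed after FB1 in KO and between the genotypes without FB1, and the resident and recruited lists did so differently. The summed linear level of 10 resident macrophage markers was 60.4 to 180 in WT control, 117 to 159 in WT FB1, 18.4 to 30.3 in KO control and 25.3 to 38.1 in KO FB1, and the WT control array at 60.4 was replicate 4. Of these markers 9 (90%) were called lower in KO without FB1, against 8.02% of all genes. After FB1 in KO 3 were called higher (30%) and 2 lower (20%), beside 16.5% and 24.6% of all genes. Soat1 itself was not called in KO against WT under FB1 (0.22 ± 0.15, adjusted p = 0.283). The sum of 12 recruited macrophage markers was 17.4 to 28.3 in WT control, 24.5 to 40.2 in WT FB1, 18.2 to 25.9 in KO control and 50.2 to 77.4 in KO FB1. Of the recruited markers 11 rose after FB1 in KO (91.7%, against 16.5% of all genes). In WT 7 rose (58.3%, against 2.06% of all genes). Without FB1, 8 were higher (66.7%, against 7.21% of all genes) and 2 lower (16.7%, against 8.02%) in KO. The part of these cells in the Soat1 values was not tested.

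Soat2 was not called after FB1 in either genotype. Its value after FB1 was -0.15 ± 0.11 in KO and 0.08 ± 0.11 in WT, and under FB1 it was 1.36-fold lower in KO than in WT livers (-0.45 ± 0.11, adjusted p = 0.00338). The range was 3.0 to 3.76 in WT FB1 and 2.89 to 3.24 in KO FB1, with overlap.

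**Figure D5:**
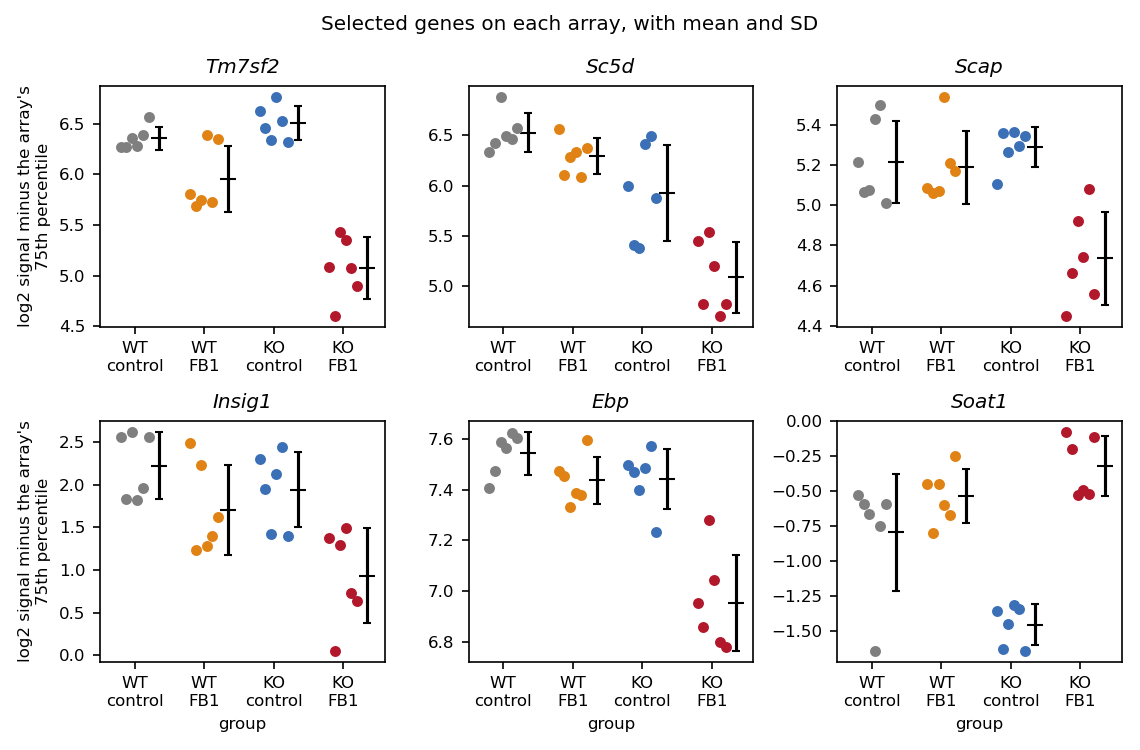
Level of 6 members on each array (y axis, log2 signal minus the array's 75th percentile) by group (x axis), with the mean and SD of 6 arrays as bars; each panel has its own scale. KO FB1 is low for Tm7sf2, Sc5d, Scap, Insig1 and Ebp, and KO control is low for Soat1, where 1 WT control array lies at -1.64.

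The genes around the SREBP2 system were read from 4 further lists, beside the 24.6% of all genes called lower and 16.5% called higher after FB1 in KO. Of 15 genes of SREBP processing and sterol-regulated degradation, 7 fell (46.7%) and 2 rose (13.3%) after FB1 in KO, with a median of -0.18. Aup1, which helps degrade sterol-sensing proteins, fell by 0.50 ± 0.08 (adjusted p = 2.69e-05), and Rnf145, a ubiquitin ligase of the endoplasmic reticulum, rose 2.37-fold (1.24 ± 0.19, adjusted p = 2.78e-05). Without FB1 limma called 1 of the 15, Srebf1, a known LXR target, which was lower in KO (-1.30 ± 0.23, adjusted p = 0.000232). Paqr3, which anchors Scap in the Golgi, was at 0.41 ± 0.15 there (adjusted p = 0.0612). In WT livers after FB1 the called gene was Rnf145, which rose (0.76 ± 0.19, adjusted p = 0.03).

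Of 11 tested genes among 12 other genes that answer to SREBP2, 8 fell (72.7%) after FB1 in KO and the other 3 were not called, with a median of -0.68 against -0.08 over all genes. Acss2, which makes acetyl-CoA from acetate, fell 3.23-fold (-1.69 ± 0.27, adjusted p = 4.4e-05), and Aldoc, an aldolase, 1.90-fold (-0.93 ± 0.12, adjusted p = 3.39e-06). In WT livers limma called 0 of the 11, with a median of -0.33 against -0.03 over all genes. At an unadjusted p under 0.05, 6 were lower and 0 higher, where 9.93% of all genes were lower and 8.14% higher. Without FB1, KO livers were lower in Acss2 (-1.10 ± 0.27, adjusted p = 0.00663) and higher in Aldoc by 0.48 ± 0.12 (adjusted p = 0.00721). In all 2 were lower (18.2%, against 8.02% of all genes) and 1 higher (9.09%, against 7.21%). Some of these genes are also targets of SREBP1.

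The non-sterol branches of the pathway were read the same way. Of 13 genes that lead from isoprenoids to ubiquinone, dolichol and prenylated proteins, 5 fell (38.5%) and 1 rose (7.69%) after FB1 in KO, with a median of -0.18. Fnta, a subunit shared by protein prenyltransferases, fell by 0.32 ± 0.07 (adjusted p = 0.00108). Pdss2, of ubiquinone synthesis, was the called gene between the genotypes without FB1 (0.29 ± 0.09 higher in KO, adjusted p = 0.0353), and Rabggta was at 0.24 ± 0.09 (adjusted p = 0.0923). Of 20 intracellular sterol carriers, 6 fell (30%) and 3 rose (15%) after FB1 in KO, shares near those of all genes, with a median of -0.15. Osbpl10, of the oxysterol-binding protein family, rose 2.13-fold (1.09 ± 0.18, adjusted p = 5.01e-05) and Stard10, a lipid transfer protein, fell by 0.50 ± 0.10 (adjusted p = 0.000478). Without FB1, Gramd1a, which carries sterol from the plasma membrane, was 0.52 ± 0.10 higher in KO (adjusted p = 0.000973) and Scp2, a sterol carrier protein, 0.27 ± 0.08 higher (adjusted p = 0.0168).

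Markers of cell types moved beside the falls of the synthesis genes. Of 15 hepatocyte markers 5 fell (33.3%) and 1 rose (6.67%) after FB1 in KO, where 24.6% of all genes fell and 16.5% rose, with a median of -0.12, beside -0.83 for the 19 synthesis genes, and their summed linear level was 5675 to 6986 in KO control and 4855 to 6806 in KO FB1. In KO after FB1, 6 of 9 stellate cell markers (66.7%), 2 of 8 cholangiocyte markers (25%) and 8 of 8 markers of dividing cells rose, and 6 of 9 markers of sinusoidal endothelium fell (66.7%), beside the same shares of all genes. Dividing cell markers also rose in WT, 8 of 8, against 2.06% of all genes, with sums of 1.44 to 6.64 in WT control and 7.76 to 24.3 in WT FB1. Sums of adrenal markers, a tissue rich in sterol synthesis, lay between 1.14 and 4.46 over all arrays. Of the 3 tested adrenal markers Star fell after FB1 in KO (-0.41 ± 0.13, adjusted p = 0.0111) and Hsd3b1 was lower in KO without FB1 (-2.07 ± 0.66, adjusted p = 0.0351), both named after their values were seen, and Cyp11a1 and Cyp11b1, defining enzymes of the adrenal, did not pass the filter. Of 6 neutrophil markers 1 fell after FB1 in KO (16.7%, against 24.6% of all genes) and 0 rose, with a median of 0.48. Of 5 tested T and NK cell markers limma called 0 there, beside the same shares of all genes, with 1 higher at an unadjusted p under 0.05. Their part in the values of the cholesterol genes was not tested.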

How the data were processed

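Liver RNA of 24 mice was measured on 1-colour arrays. Per the file headers, Agilent Feature Extraction 10.10.1.1 made the deposited scanner files, which hold spot intensity after background subtraction and spatial detrending, with no scaling between arrays, and place probes on build mm9. The authors also deposited log2 values for 33417 probes. The probes tested here also number 33417, but they are another set, with 32012 probes in both. Limma is named in the submitters' processing notes.

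Processed intensity was put on the log2 scale and each array's 75th percentile, 490 to 685 in intensity units, was subtracted. From 64 to 121 outlier spots per array were left out, and repeated spots were averaged. Probes entered if 1 or more groups had them well above background on all usable arrays and no group had fewer than 4 values. The brightest such probe stood for its gene. Limma 3.58.1 in R 4.3.3 fitted the 4 group means over all arrays, with Benjamini-Hochberg adjustment over 22088 genes. The fit was tested on simulated data. The data.table package (version 1.17.8), Python 3.11.15 and matplotlib 3.10.9 were also used.

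Members and gene lists were chosen with earlier results of these data known. Values per array are given for the members with the 3 smallest p in a comparison or the smallest in a pathway step, and for Srebf2, Scap, Insig1 and Insig2. Each further list is shown by its 2 genes of smallest p after FB1 in KO and in KO controls against WT controls; Rnf145 in WT was added after its value was seen. A gene that this rule names is not reported here. A fit of all 33417 tested probes, likewise added after seeing the data, gave the values of members' other probes. Other settings tried were quantile normalization; normexp with an offset of 50; the authors' values; stricter and looser probe filters; outliers kept; averaged probes; blocking on slide or on the replicate number of the titles; single slides; only the compared groups; an intensity trend; a 1.5-fold minimum; and omission of each array.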

Additional observations from a re-analysis of the deposited data

Results flagged for a closer look

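For 6 of 112 groups of 6 arrays (28 members in 4 groups) 1 array stood far from the others by a gap test that chance meets in about 1 of 20 groups. Soat1 in WT control replicate 4 was at -1.64, where the next array was at -0.75. Lbr in KO FB1 replicate 5 was at 2.19, the next at 2.54. Scap in WT FB1 replicate 4 was at 5.54, the next at 5.21. Npc2 in KO FB1 replicate 1 was at 2.86, the next at 3.04. Soat2 in WT control replicate 6 was at 2.94, the next at 3.35, and in KO FB1 replicate 6 at 3.24, the next at 3.02.

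The FB1 effect differed between the genotypes, by the test of the difference itself, for Tm7sf2 (-1.03), Ebp (-0.38), Scap (-0.53) and Soat1 (0.88), each as the KO effect minus the WT effect on the log2 scale.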

How the results depend on the processing

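At an adjusted p under 0.05, called members kept their call under every other setting with a test, other probes and the 1.5-fold minimum apart, for 18 of 21 after FB1 in KO, 1 of 7 in KO against WT without FB1, 7 of 9 with FB1 and 1 of 4 for the difference of the FB1 effects, which was Tm7sf2. With the 1.5-fold minimum added, 15, 1, 3 and 1 kept it. Within slides the sign of the called members was kept in all comparisons except for Idi1 after FB1 in KO within slide 2 (0.0047).

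The members called lower after FB1 in WT numbered 1 with normexp or an intensity trend and 4 with the groups alone. After FB1 in KO 2 were called higher with quantile normalization or the authors' values. In KO against WT without FB1, 1 was lower with quantile normalization or the mean of probes, and 1 was higher with all probes, 7 with the mean of probes and 2 with the groups alone. In KO against WT with FB1, 4 were higher with quantile normalization, 3 with normexp, the authors' values, slide as a block or an intensity trend, 2 with the mean of probes, and with the 1.5-fold threshold 0 were higher and 4 lower. For the difference of the FB1 effects, 1 was lower with the authors' values, all probes or the 1.5-fold threshold, and 0 were higher with the authors' values. The median of the members was -1.16 and -0.20 after FB1 in KO within slides 1 and 2, -0.63 and 0.051 for the difference, and 0.13 in KO against WT with FB1 within slide 2. The cause of these changes was not tested.

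Leaving out 1 array gave 0 to 2 members lower after FB1 in WT, 1 to 2 higher after FB1 in KO, 1 to 3 lower and 0 to 7 higher in KO against WT without FB1, 1 to 4 higher with FB1, and 1 to 3 lower for the difference. With a replicate block 3 members were called higher in KO against WT with FB1, as Hmgcs1 and Cyp51 were gained; Msmo1 was gained without FB1, the difference for Ebp was lost, and no other call changed. Arrays with the same number correlated at -0.2 to 0.241 in their deviations from the group means, and 2 of 24 correlated best with their own number, so the numbers were not taken as pairs. Another probe reversed Hsd17b7 without FB1 (-0.51) and Nsdhl with FB1 (0.61). The brightest Soat1 probe lay below the 75th percentile on every array, though well above background on all 24. Whether signal level affects the Soat1 values was not tested.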
